A study of Mus musculus with 23 samples.

Results

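The genes described here are the TAM receptors Mertk, Axl and Tyro3, their ligands Gas6 and Pros1, the bridging molecule Mfge8, the phosphatidylserine receptors Timd4 and Stab1, and the class A scavenger receptors Msr1 and Marco. They were chosen by symbol, each had 1 transcript cluster on the array, and they are 10 of the 22180 genes tested. Schwann cells (SCs) and macrophages were sorted from nerve or neurofibroma, and their RNA was hybridized to 21 whole-transcript microarrays (Affymetrix Mouse Gene 2.0 ST), beside 2 arrays of a universal batch control. Sorting took p75+ cells as SCs and F4/80+;CD11b+ cells as macrophages.

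The labels give a mixed C57BL/6 and BALB/c background for the mice, whereas the study's methods name C57Bl/6 alone. The wild-type groups (3 SC and 3 macrophage arrays) came from dorsal root ganglia and nerves of 1-month-old Nf1fl/fl mice, which carry the unrecombined allele and no Cre. The mutant groups (3 SC and 5 macrophage arrays) came from 1-month-old Nf1fl/fl;DhhCre mice, whose tissue the labels call neurofibroma although tumors have not yet formed at that age. The neurofibroma groups (3 SC and 4 macrophage arrays) came from tumors of Nf1fl/fl;DhhCre mice at 7 months of age, and their arrays are lettered a to c and a to d here in the order of the labels' sample numbers. The other arrays keep the label's number as replicate. DhhCre removes Nf1 in the SC lineage. Mutant and neurofibroma SCs, labelled Nf1-/-, were a mixture of wild-type and Nf1-/- cells by the study's own genotyping, and all macrophages were labelled Nf1+/+. Tissue of several mice was pooled for each sort at 1 month, and no 7-month wild-type tissue entered the comparisons, so tumor and age cannot be told apart.

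Efferocytosis is the removal of dying cells by phagocytes. Dying cells expose phosphatidylserine, which Timd4 and Stab1 bind directly. Gas6 and Pros1 link phosphatidylserine to the TAM receptor kinases, and Mfge8 links it to integrins of the alpha-v family. Msr1 and Marco bind modified lipoproteins and bacterial surfaces. In peripheral nerve, both SCs and macrophages clear myelin debris after injury, and both cell types can make TAM ligands.

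Sorted cells carried the markers of their labels, with RNA of other cells beside them. Of 19 measured macrophage markers, 18 were lower in SCs than in macrophages in each of the 3 tissue states, and of 15 SC markers 14, 12 and 13 were higher in wild-type, mutant and neurofibroma SCs. The summed linear signal of 11 fibroblast markers was 7265 to 8769 on SC arrays, 496 to 3247 on 1-month macrophage arrays and 374 to 618 on neurofibroma macrophage arrays. The summed signal of SC markers was 537 to 1704 on 1-month macrophage arrays against 226 to 270 on neurofibroma macrophage arrays. Summed macrophage markers were 382 to 660 on 1-month SC arrays and 745 to 1369 on neurofibroma SC arrays. The Nf1 signal was 6.95 to 7.06 in wild-type SCs, 6.56 to 6.79 in mutant SCs and 7.04 to 7.26 in neurofibroma SCs (log2, 3 arrays each). It covers more than the recombined exons and is no check of the deletion. A set of 5 arrays (wild-type SC replicates 2 and 3, wild-type macrophage replicates 5 and 6, neurofibroma SC array c) carried seminal vesicle transcripts at a mean log2 level of 4.16 to 8.42, against 1.98 to 2.65 on the other 16 sorted arrays.

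The deposited values lay on 2 levels that followed age. Array medians were 3.74 to 3.86 at 1 month and 2.92 to 2.97 at 7 months, with 1 universal control array on each level. Levels below are log2 values after ComBat removed this offset. Within one age the differences of the 10 genes were the same without that step, while their errors and p-values shifted, and which genes passed did not change. Comparisons across age rest on the single control pair, whose own error the ComBat values leave out. They are also given from a fit of the deposited values with array set as a term and the controls included. With 1 control array on each level, that fit cannot measure the error of the pair. It gives the pair the spread of the sorted-cell arrays. A gene passed the test when limma's Benjamini-Hochberg adjusted p over all 22180 genes was under 0.05 and the fold change was above 2. Labels do not say which arrays came from separate animals, so p-values measure the spread between arrays.

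RefSeq promoters (GRCm38.p6) were found for 9 of the 10 genes, all but Msr1, and 250 bases at the start were read. The Timd4 and Stab1 windows reach past the listed gene boundaries (46810786 and 31168651) a few bases into the genes. The promoters shown are all that were found for the genes that passed between the cell types in at least 1 state, first the receptors and then the ligands. Capitals mark GAGGAA, the core of sites bound by the myeloid factor PU.1 and other ETS proteins, on either strand.
Stab1, chr14:31168642-31168891 (minus strand): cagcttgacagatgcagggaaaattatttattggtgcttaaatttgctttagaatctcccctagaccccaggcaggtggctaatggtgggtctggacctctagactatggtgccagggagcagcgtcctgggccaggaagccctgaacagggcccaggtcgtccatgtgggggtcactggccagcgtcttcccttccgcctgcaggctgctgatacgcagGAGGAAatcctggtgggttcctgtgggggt
Timd4, chr11:46810549-46810798 (plus strand): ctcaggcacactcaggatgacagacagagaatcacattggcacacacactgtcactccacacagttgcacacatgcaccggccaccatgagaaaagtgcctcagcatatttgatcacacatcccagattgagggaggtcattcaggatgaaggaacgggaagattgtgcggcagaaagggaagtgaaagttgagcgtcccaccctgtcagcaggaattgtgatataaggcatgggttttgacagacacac
Marco, chr1:120505025-120505274 (minus strand): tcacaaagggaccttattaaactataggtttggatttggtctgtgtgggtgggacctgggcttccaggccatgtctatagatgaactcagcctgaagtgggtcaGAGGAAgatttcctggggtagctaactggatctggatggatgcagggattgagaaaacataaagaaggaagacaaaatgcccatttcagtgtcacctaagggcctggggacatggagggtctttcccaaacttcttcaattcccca
Pros1, chr16:62854057-62854306 (plus strand): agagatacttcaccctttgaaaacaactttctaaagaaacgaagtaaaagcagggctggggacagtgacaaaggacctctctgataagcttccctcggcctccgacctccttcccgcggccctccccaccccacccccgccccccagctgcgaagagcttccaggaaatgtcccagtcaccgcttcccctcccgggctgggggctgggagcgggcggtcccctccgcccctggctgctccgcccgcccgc
Gas6, chr8:13494536-13494785 (minus strand): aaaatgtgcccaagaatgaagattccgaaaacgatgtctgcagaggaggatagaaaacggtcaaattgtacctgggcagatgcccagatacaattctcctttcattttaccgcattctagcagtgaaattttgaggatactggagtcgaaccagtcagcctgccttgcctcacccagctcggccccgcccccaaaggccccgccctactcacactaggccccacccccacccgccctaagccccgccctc
Mfge8, chr7:79149061-79149310 (minus strand): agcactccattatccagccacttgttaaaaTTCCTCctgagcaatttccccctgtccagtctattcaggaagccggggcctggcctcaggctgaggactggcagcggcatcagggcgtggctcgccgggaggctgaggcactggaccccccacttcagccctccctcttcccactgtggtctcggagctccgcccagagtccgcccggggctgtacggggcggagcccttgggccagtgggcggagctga
The CG dinucleotide occurred 0 times in the Marco window, 5 times in Stab1 and 4 times in Timd4, against 15 in Pros1, 12 in Mfge8 and 10 in Gas6. The median over 32851 promoters was 6, and 7.9% of them had no more than Marco. Among the TAM receptors it occurred 5 times in Axl, 7 in Mertk and 24 in Tyro3. GAGGAA was found in Stab1, Marco, Mfge8 and Axl, 4 of the 9 promoters, and in 23.3% of all promoters. The AP-1 motif TGANTCA was in none of the 9 and in 6.7% of all promoters. These letter matches say nothing of binding.

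**Figure D1:**
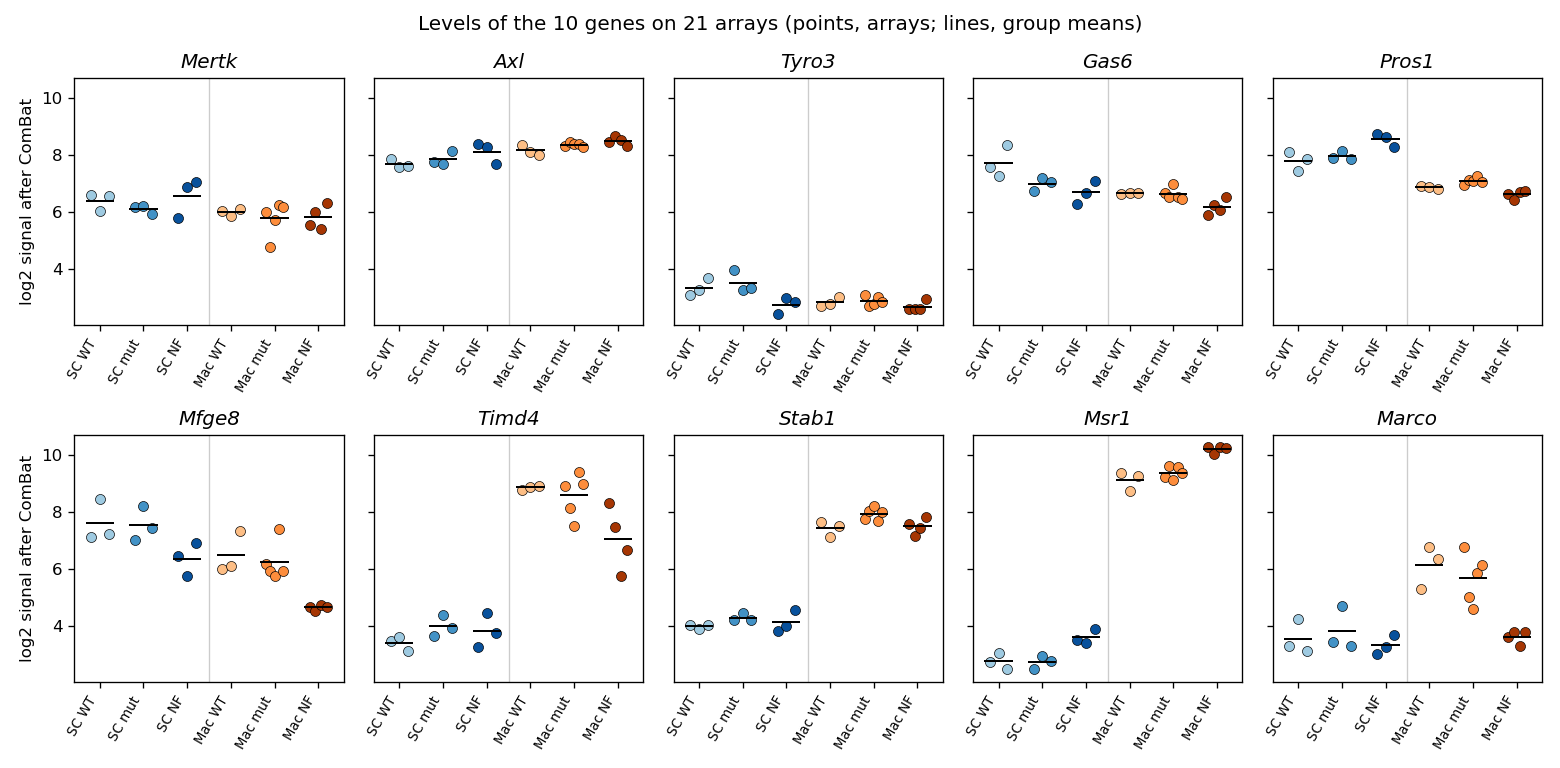
Log2 signal after ComBat (y axis) of each gene on every sorted array (points) by group (x axis: WT, wild-type; mut, mutant; NF, neurofibroma; Mac, macrophage), with group means as lines. Timd4, Stab1 and Msr1 arrays of macrophages all lie above those of SCs, while Marco on neurofibroma macrophage arrays (3.27 to 3.79) lies in the SC range.

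Macrophages and SCs of the same tissue were compared first. Msr1, Stab1 and Timd4 were far higher in macrophages in all 3 states, Marco was higher in macrophages in both 1-month states and did not pass in neurofibroma, and Pros1 and Mfge8 were higher in SCs in neurofibroma. Of the 10 genes, 1 was higher and 4 lower in wild-type SCs, 1 higher and 4 lower in mutant SCs, and 2 higher and 3 lower in neurofibroma SCs. Over all genes, 8.94% were higher and 5.03% lower in wild-type SCs, 7.26% and 5.75% in mutant SCs, and 6.50% and 5.91% in neurofibroma SCs. Over all genes, SC arrays lay wholly above macrophage arrays for 20.3%, 15.6% and 12.7% and wholly below for 22.4%, 15.1% and 13.6%. The median difference of the 10 was -0.04, -0.09 and -0.12, beside -0.06, 0.00 and -0.02 over all genes.

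Msr1, a trimeric receptor that takes up oxidized lipoprotein, was 9.37, 8.74 and 9.27 on the wild-type macrophage arrays (replicates 4, 5 and 6). On the wild-type SC arrays (replicates 1, 2 and 3) it was 2.72, 3.03 and 2.47. The groups were far apart. SC signals of Msr1 at 1 month lay around the first quartile of all genes (2.66 to 2.84 over the arrays), with 1 wild-type and 1 mutant SC array below it. The 1-month log2 differences therefore give the direction, and their size was not read as a fold. In wild-type tissue the difference was -6.39 ± 0.19 (SE, adjusted p = 3.2e-15). In mutant tissue it was -6.67 ± 0.17 (adjusted p = 1.5e-16) and in neurofibroma -6.65 ± 0.18 (adjusted p = 5.9e-16).

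Stab1, a large receptor for phosphatidylserine and modified lipoproteins, was 7.66, 7.12 and 7.51 in wild-type macrophages and 4.00, 3.88 and 4.02 in wild-type SCs. Its SC minus macrophage difference was -3.46 ± 0.20 in wild-type, -3.67 ± 0.18 in mutant and -3.39 ± 0.18 in neurofibroma tissue, with no overlap of arrays in any state. Adjusted p-values were 4.2e-11, 2.1e-12 and 1.4e-11.

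Timd4 encodes TIM-4, a tethering receptor that marks long-lived resident macrophages in many tissues. It was 8.78, 8.90 and 8.93 in wild-type macrophages and 8.92, 8.15, 7.53, 9.41 and 9.00 in mutant macrophages (replicates 11 to 15). In neurofibroma macrophages (arrays a to d) it was 8.31, 7.48, 5.75 and 6.67, the widest spread of the 10 genes in any group (SD 1.10, n = 4). SC arrays held 3.10 to 4.46. SCs were lower by -5.49 ± 0.50 in wild-type (adjusted p = 4.3e-08), -4.63 ± 0.44 in mutant (adjusted p = 8.0e-08) and -3.24 ± 0.46 in neurofibroma tissue (adjusted p = 1.3e-05).

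Marco, a receptor for bacteria and particles, was 5.27, 6.78 and 6.35 in wild-type macrophages against 3.26, 4.23 and 3.09 in wild-type SCs. The difference was -2.61 ± 0.48 (adjusted p = 2.5e-04), and -1.62 without wild-type macrophage replicates 5 and 6, where it did not pass (adjusted p = 0.086). In mutant tissue macrophages held 6.76, 5.01, 4.59, 5.84 and 6.13 and SCs (replicates 8, 9 and 10) 3.42, 4.70 and 3.28, with overlap at SC replicate 9. The difference there was -1.87 ± 0.43 (adjusted p = 0.0019). In neurofibroma both cell types lay between 2.99 and 3.79, and the difference was -0.30 ± 0.45 (95% interval -1.24 to 0.64, adjusted p = 0.79).

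**Figure D2:**
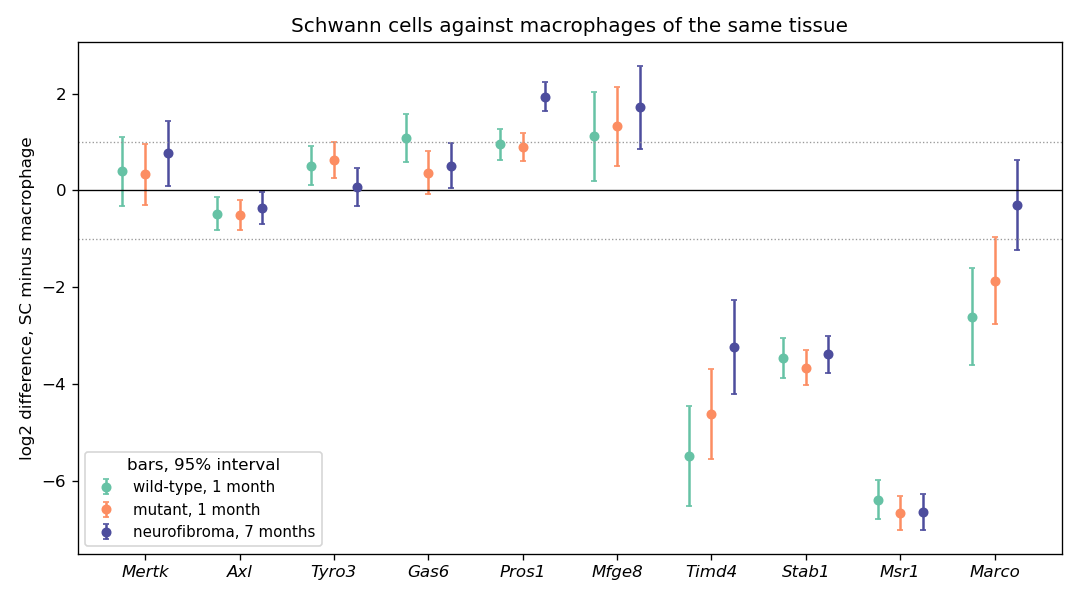
Log2 difference between SCs and macrophages of the same tissue (y axis) for each gene (x axis) in wild-type, mutant and neurofibroma tissue (colours), with 95% intervals from the 6-group fit as bars and dotted lines at a fold change of 2. Msr1 lies between -6.39 and -6.67, whereas Pros1 is at 0.95, 0.89 and 1.94 and Marco at -2.61, -1.87 and -0.30.

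Pros1 encodes protein S, a vitamin K-dependent anticoagulant that activates Mertk and Tyro3. It was 8.12, 7.44 and 7.87 in wild-type SCs, 7.91, 8.15 and 7.88 in mutant SCs and 8.73, 8.65 and 8.30 in neurofibroma SCs (arrays a to c). In macrophages it was 6.90, 6.88 and 6.80 in wild-type, 6.93, 7.12, 7.10, 7.25 and 7.04 in mutant and 6.64, 6.43, 6.70 and 6.72 in neurofibroma tissue. Every SC array lay above every macrophage array. SCs were higher by 0.95 ± 0.16 in wild-type (adjusted p = 6.9e-05) and 0.89 ± 0.14 in mutant tissue (adjusted p = 3.9e-05), both under a fold change of 2, and by 1.94 ± 0.15 in neurofibroma (adjusted p = 1.8e-09), a 3.83-fold excess that passed.

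Mfge8 encodes lactadherin, a bridge between phosphatidylserine and integrins. It was 7.11, 8.46 and 7.22 in wild-type SCs and 5.99, 6.12 and 7.34 in wild-type macrophages. The groups overlapped through macrophage replicate 6, and the difference of 1.11 ± 0.44 did not pass (adjusted p = 0.059). In mutant tissue SCs held 7.03, 8.23 and 7.42 and macrophages 6.17, 5.93, 5.75, 7.41 and 5.94. That difference was 1.32 ± 0.39 (adjusted p = 0.014) and overlapped through macrophage replicate 14, and without SC replicate 9 it was 0.94 and did not pass. All mutant macrophages but only 1 of 3 mutant SC arrays were in label batch 1, and with label batch as a term the difference was 1.01 (adjusted p = 0.18). In neurofibroma SCs held 6.45, 5.74 and 6.91 and macrophages 4.66, 4.52, 4.74 and 4.66. SCs were higher by 1.72 ± 0.41 (adjusted p = 0.0031), with no overlap.

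Gas6, the high-affinity ligand of Axl, was 7.57, 7.27 and 8.36 in wild-type SCs and 6.63, 6.67 and 6.66 in wild-type macrophages. SCs were higher by 1.08 ± 0.24 (adjusted p = 0.0014). Without SC replicate 3 the difference was 0.73 and was no longer above a fold change of 2, and without the 5 arrays with seminal vesicle transcripts it was 0.92 (adjusted p = 0.054). In mutant tissue SCs held 6.75, 7.18 and 7.05, and in neurofibroma 6.29, 6.68 and 7.08. The differences from macrophages there were 0.36 ± 0.21 (adjusted p = 0.23) and 0.51 ± 0.22 (adjusted p = 0.12), with overlapping arrays.

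Levels of the 3 ligands in SCs stood beside transcripts of other cells. The 11 fibroblast markers summed to 7265 to 8769 on SC arrays. Of these, 10, 10 and 8 passed as higher in wild-type, mutant and neurofibroma SCs than in macrophages, beside 8.94%, 7.26% and 6.50% of all genes. The 15 SC markers summed to 4081 to 6103 on 1-month SC arrays and to 2453 to 3617 on neurofibroma SC arrays. On 1-month SC arrays the 8 pericyte and smooth muscle markers summed to 1763 to 2966, and on neurofibroma SC arrays to 955 to 2065. The 8 endothelial markers summed to 636 to 1681 on 1-month SC arrays and to 1385, 2586 and 5302 on neurofibroma SC arrays a to c. Gas6 and Mertk had the same order over those 3 arrays, Pros1 had the opposite order and Mfge8 had neither. The part of such cells in the SC levels of Pros1, Mfge8, Gas6 and Mertk was not tested, and fewer cells of a type cannot be told apart from less RNA per cell in sorted bulk samples.

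None of the 3 TAM receptors passed between the cell types in any state. Axl, an inducible receptor of inflamed tissue, was the one TAM receptor with a lower level in SCs at an adjusted p under 0.05. It was 7.87, 7.57 and 7.61 in wild-type SCs against 8.37, 8.12 and 8.01 in macrophages, without overlap, and the difference was -0.48 ± 0.17 (adjusted p = 0.030, and 0.0502 with the controls in the fit). In mutant tissue the difference was -0.50 ± 0.15 (adjusted p = 0.013) and in neurofibroma -0.37 ± 0.15 (adjusted p = 0.10), where SC arrays at 8.38 and 8.30 reached the macrophage range of 8.33 to 8.67.

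Mertk, the TAM receptor most often used to identify tissue macrophages, had a higher mean in SCs in each state without passing. It was 6.61, 6.01 and 6.56 in wild-type SCs and 6.03, 5.84 and 6.12 in wild-type macrophages. In neurofibroma SCs held 5.79, 6.87 and 7.04 and macrophages 5.55, 5.98, 5.38 and 6.32. The differences were 0.40 ± 0.34, 0.33 ± 0.30 and 0.76 ± 0.32 in wild-type, mutant and neurofibroma tissue (adjusted p = 0.40, 0.47 and 0.10). Their 95% intervals were -0.31 to 1.11, -0.30 to 0.97 and 0.10 to 1.43.

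Tyro3, the TAM receptor most abundant in the nervous system, was low throughout. It was 3.06, 3.23 and 3.67 in wild-type SCs, 3.94, 3.23 and 3.30 in mutant SCs and 2.40, 2.96 and 2.82 in neurofibroma SCs. Macrophage arrays held 2.57 to 3.07, and 6 of 12 lay below the first quartile of all genes, so no order was read among them. SCs were higher in mutant tissue by 0.63 ± 0.18 (adjusted p = 0.0092), under a fold change of 2. The wild-type and neurofibroma differences were 0.51 ± 0.20 (adjusted p = 0.053) and 0.07 ± 0.18 (adjusted p = 0.91).

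Mutant and wild-type cells were then compared at 1 month, the age before tumors. None of the 10 genes passed in either cell type. No gene of all 22180 passed by limma either, a share of 0%. An unadjusted limma p under 0.05 was found for 1623 genes in SCs and 3663 in macrophages. Chance alone gives such a p for a share of about 0.05 of all genes. Over all genes, 4 passed in SCs with label batch as a term and 8 in macrophages with array weights, and 78 passed in macrophages without wild-type replicate 4 (29 higher and 49 lower). None of the 10 was among them. The median difference of the 10 was 0.17 in SCs and 0.02 in macrophages. All mutant macrophage arrays were in label batch 1 and all wild-type macrophage arrays in batch 2, so batch and genotype cannot be told apart there. Gas6 was lower in mutant than wild-type SCs on every array, as were 6.93% of all genes, by -0.74 ± 0.29 (adjusted p = 0.68), and Stab1 was higher in mutant macrophages on every array, as were 4.08%, by 0.52 ± 0.17 (adjusted p = 0.18). The 95% interval of the Mfge8 difference in SCs ran from -0.98 to 0.90 and that of Marco in macrophages from -1.38 to 0.44.

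Neurofibroma macrophages were compared with 1-month macrophages. After ComBat, Marco, Mfge8 and Timd4 passed as lower in neurofibroma macrophages than in both 1-month groups. Msr1 passed as higher against wild-type macrophages alone. None of these calls was made with the controls in the fit, where the control pair is given the spread of the sorted-cell arrays. Against mutant macrophages 3 of the 10 genes passed, all lower, beside 2.34% of all genes that were lower. Against wild-type macrophages 1 was higher and 3 were lower, beside 3.30% and 2.93%. With the controls in the fit 0 of the 10 passed in either comparison, beside 0.225% and 0.207% of all genes.

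Marco in neurofibroma macrophages was 3.60, 3.79, 3.27 and 3.79, below every 1-month macrophage array. It was lower than in mutant macrophages by -2.05 ± 0.39 after ComBat (adjusted p = 0.0013), and by -2.08 ± 1.03 with the controls in the fit (adjusted p = 0.63). Mfge8 in neurofibroma macrophages, at 4.52 to 4.74, also lay below every 1-month macrophage array. The values were -1.60 ± 0.32 after ComBat (adjusted p = 0.0020) and -1.66 ± 0.92 with the controls (adjusted p = 0.71). With arrays centred on their medians Mfge8 was at -0.89 (adjusted p = 0.071) and with quantile normalization at -1.05 (adjusted p = 0.058), and it passed in neither. Against mutant arrays alone, 15.7% of all genes lay below and 13.8% above on every array.

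Timd4 was -1.55 ± 0.45 after ComBat (adjusted p = 0.016) with neurofibroma arrays a and b near or inside the mutant range, and -1.63 ± 1.09 with the controls (adjusted p = 0.80). It did not pass without neurofibroma macrophage array c (-1.03), with label batch as a term (adjusted p = 0.16), with arrays centred on their medians (-1.04, adjusted p = 0.13) or with quantile normalization (-1.32, adjusted p = 0.075). Against wild-type macrophages Timd4 was lower by -1.82 (adjusted p = 0.014) and Marco by -2.52 (adjusted p = 9.0e-04). Without the 5 arrays with seminal vesicle transcripts, these were -1.72 (adjusted p = 0.19) and -1.53 (adjusted p = 0.10), and neither passed. After ComBat, Msr1 was 10.31, 10.07, 10.30 and 10.26 in neurofibroma macrophages, above the 8.74 to 9.62 of all 1-month macrophage arrays. The deposited means, before the offset was removed, ran the other way. They were 9.40 in neurofibroma, 9.56 in wild-type and 9.82 in mutant macrophages. Msr1 was higher than in wild-type macrophages by 1.11 ± 0.16 after ComBat (adjusted p = 3.0e-04) and 1.13 ± 0.39 with the controls (adjusted p = 0.29). It was 0.74 with arrays centred on their medians, 0.31 with quantile normalization and 0.88 without wild-type macrophage replicate 5, all under a fold change of 2. Against mutant macrophages it was higher by 0.84 ± 0.14 (adjusted p = 6.5e-04), under a fold change of 2.

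The lower Mfge8 level after ComBat stood beside lower signals of SC and fibroblast markers. Wild-type macrophage replicates 5 and 6 had summed SC marker signals of 1288 and 1121 and Mfge8 at 6.12 and 7.34, and mutant replicates 13 and 14 had 537 and 1704 with Mfge8 at 5.75 and 7.41. Neurofibroma macrophage arrays had 226 to 270. Wild-type replicate 4 and mutant replicate 13 had the lowest SC marker sums of the 1-month macrophage arrays (539 and 537), above those of neurofibroma macrophages. They held Mfge8 at 5.99 and 5.75, and neurofibroma macrophages held 4.52 to 4.74, levels compared across the age offset. The part of SC RNA in the difference was not tested.

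Without the 2 wild-type macrophage arrays that carried seminal vesicle transcripts, none of the 4 genes passed against wild-type macrophages, where 1 wild-type array then remained. After ComBat, Stab1, Gas6 and Pros1 were lower than in mutant macrophages by -0.45, -0.46 and -0.47 at adjusted p-values of 0.041, 0.021 and 0.0028, all under a fold change of 2, beside 34.8% of all genes with an adjusted p under 0.05 in either direction. Axl was higher than in wild-type macrophages by 0.33 (adjusted p = 0.045), also under it. With the controls in the fit none of these had an adjusted p under 0.05.

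**Figure D3:**
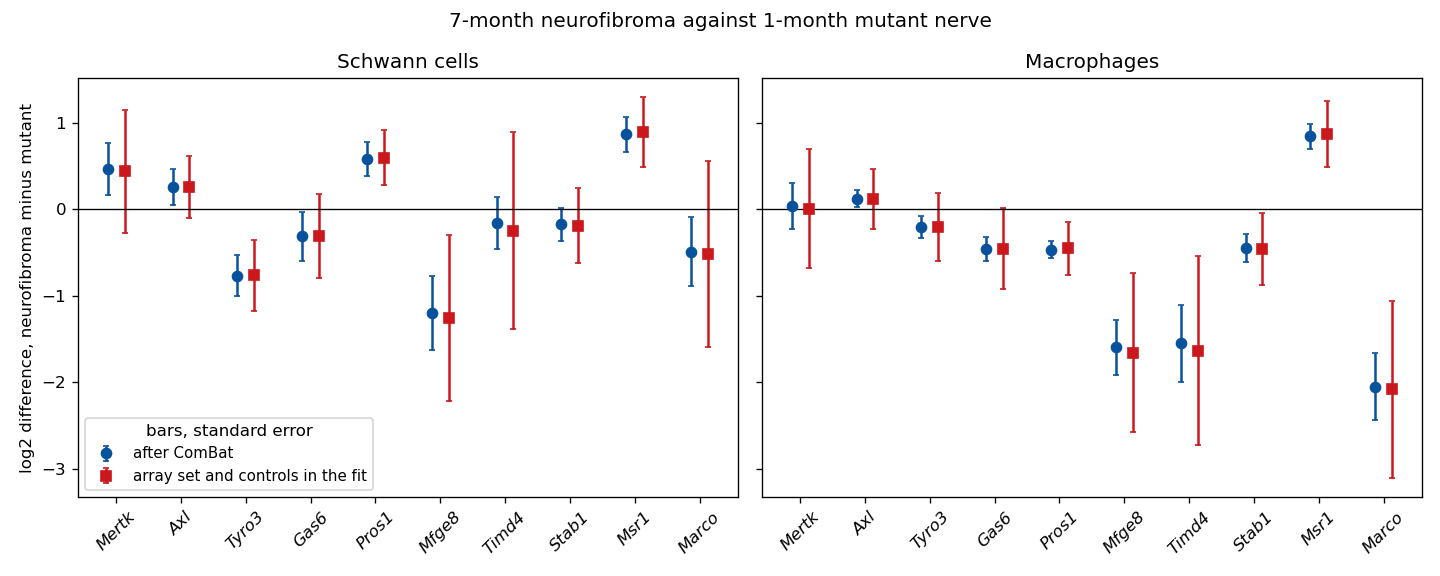
Log2 difference between 7-month neurofibroma and 1-month mutant tissue (y axis) for each gene (x axis) in SCs (left) and macrophages (right), after ComBat (circles) and with array set and universal controls in the fit (squares), with standard errors as bars. The values nearly coincide because both take the shift between array sets from the same control pair. The standard error of Marco in macrophages is 0.39 after ComBat and 1.03 with the controls.

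In SCs the same comparison gave fewer calls. Against mutant SCs 0 of the 10 genes passed in limma, beside 5.63% of all genes, and Msr1 alone had an adjusted p under 0.05 at any fold change, beside 16.4%. Against wild-type SCs Gas6 alone passed, beside 4.10% of all genes that were lower. With the controls in the fit 0 passed, beside 0.230% and 0.311%.

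Gas6 was lower in neurofibroma SCs than in wild-type SCs by -1.05 ± 0.29 after ComBat (adjusted p = 0.030) and -1.05 ± 0.49 with the controls (adjusted p = 0.49), and the arrays did not overlap, as for 22.2% of all genes in that direction. It did not pass without any one of wild-type SC replicates 1 or 3 or neurofibroma SC arrays a or b, nor without the 5 arrays that carried seminal vesicle transcripts, nor within label batch 2 (-1.13, adjusted p = 0.087). After ComBat Pros1 was at 0.75 ± 0.20 against wild-type SCs (adjusted p = 0.026) and 0.58 ± 0.20 against mutant SCs (adjusted p = 0.068). With the controls it was at 0.77 ± 0.32 (adjusted p = 0.41) and 0.60 ± 0.32 (adjusted p = 0.64). Its deposited means, before the offset was removed, were 8.01 in neurofibroma, 8.26 in mutant and 8.10 in wild-type SCs.

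Msr1 was 3.49, 3.38 and 3.88 in neurofibroma SCs, above every 1-month SC array, as were 15.9% of all genes against mutant SC arrays. It was higher than in mutant SCs by 0.87 ± 0.20 after ComBat (adjusted p = 0.017) and 0.90 ± 0.40 with the controls (adjusted p = 0.52). The deposited means, before the offset was removed, were 2.75 in neurofibroma and 3.15 in mutant SCs. This stood beside summed macrophage markers of 745 to 1369 on neurofibroma SC arrays against 382 to 586 on mutant SC arrays, whose part was not tested. Mfge8 and Tyro3 were lower on all neurofibroma than all mutant SC arrays, by -1.20 ± 0.42 (adjusted p = 0.079) and -0.77 ± 0.24 (adjusted p = 0.053). That is 2 of 10 genes, near the 21.2% of all genes, and with the controls the adjusted p-values were 0.81 and 0.64.

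The change of the SC minus macrophage difference between states was then tested, in which an additive offset between ages cancels. Pros1 was the one gene of the 10 that passed against mutant tissue, beside 1.04% of all genes with a change in the same direction (1.67% in either direction with the controls in the fit). Its SC excess was larger in neurofibroma than in mutant tissue by 1.05 ± 0.20 (95% interval 0.63 to 1.47, adjusted p = 0.0056), and with the controls in the fit the adjusted p was 0.0097. Against wild-type tissue the increase was 0.99 ± 0.21 (adjusted p = 0.0094), just under a fold change of 2. How the change divides between the cell types rests on the control pair. With the controls it was 0.60 ± 0.32 in SCs (adjusted p = 0.64) and -0.45 ± 0.31 in macrophages (adjusted p = 0.82), and neither passed.

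The Pros1 change against mutant tissue was 0.95 to 1.16 over 29 alternative settings, with adjusted p-values of 0.0019 to 0.046. In 5 of them it was under a fold change of 2, which were quantile normalization, label batch as a term (0.95) and the fits without mutant SC replicate 10, neurofibroma macrophage array b or neurofibroma SC array a. Neurofibroma macrophage arrays had both the lowest SC marker sums (226 to 270) and the lowest Pros1 levels after ComBat (6.43 to 6.72). At 1 month, mutant replicates 13 and 14, at sums of 537 and 1704, held 7.10 and 7.25, and wild-type replicates 4 and 5, at 539 and 1288, held 6.90 and 6.88. The part of SC RNA in the Pros1 change was not tested.

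Marco alone passed against wild-type tissue, beside 1.13% of all genes with a change in the same direction (3.08% in either direction with the controls in the fit). Its deficit in SCs was smaller in neurofibroma by 2.31 ± 0.66 (adjusted p = 0.044). With the controls in the fit the adjusted p was 0.084, and the call was lost in 20 of 28 alternatives. Without wild-type macrophage replicates 5 and 6 it was 1.32, and within label batch 2 it was 2.18 (adjusted p = 0.060). The Timd4 change was of similar size, 2.25 ± 0.68, and did not pass (adjusted p = 0.056). For the 3 TAM receptors the changes were between -0.56 and 0.43 and none passed against either state.

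**Figure D4:**
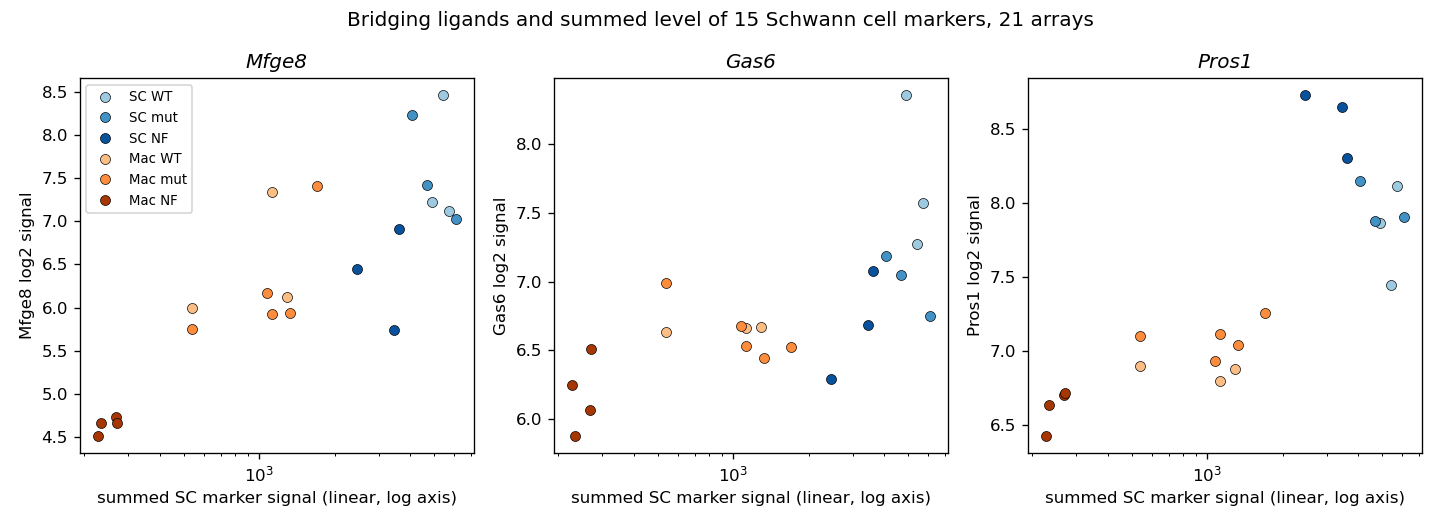
Log2 signal after ComBat of Mfge8, Gas6 and Pros1 (y axes) against the summed linear signal of 15 SC markers (x axes, log scale) on each of 21 arrays, coloured by group. Neurofibroma macrophage arrays lie at sums of 226 to 270. After ComBat, Pros1 on neurofibroma SC arrays (8.30 to 8.73) is above all other arrays, and the sums of these arrays (2453 to 3617) are below those of 1-month SCs.

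Other genes of engulfment were examined in 8 lists of 97 genes, of which 90 were measured here. In neurofibroma 8 were higher and 31 lower in SCs than in macrophages, with a median difference of -0.53 against -0.02 over all genes, of which 6.50% were higher and 5.91% lower. In wild-type tissue 11 were higher and 33 lower, beside 8.94% and 5.03% of all genes, and in mutant tissue 8 higher and 32 lower, beside 7.26% and 5.75%. The same shares apply to each list described next.

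Among 17 engulfment receptors, Itgb3, the beta subunit of the integrin that binds Mfge8, was higher in SCs of neurofibroma by 2.03 ± 0.24 (adjusted p = 1.2e-06), and 4 were lower. Of these, Cd14, a co-receptor for lipopolysaccharide, was at -5.34 ± 0.29 (adjusted p = 1.5e-11) and Cd36, a fatty acid and oxidized lipid receptor, at -5.23 ± 0.33 (adjusted p = 1.7e-10). In wild-type SCs Megf10, an engulfment receptor of glia, was higher by 2.18 ± 0.23 (adjusted p = 3.7e-07). The SC excess of Megf10 was smaller in neurofibroma than in wild-type tissue by -1.95 ± 0.32 (adjusted p = 0.0012).

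Of 13 bridging and eat-me molecules, 1 was higher and 4 were lower in neurofibroma SCs. Anxa1, annexin A1, was higher by 3.20 ± 0.27 (adjusted p = 9.4e-09), and C1qb and C1qa, chains of complement C1q, were lower by -5.09 ± 0.30 and -4.41 ± 0.23 (adjusted p = 6.3e-11 and 9.3e-12). The Anxa1 excess was larger in neurofibroma than in mutant tissue by 2.25 ± 0.37 (adjusted p = 0.0019).

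Of 7 genes for phosphatidylserine exposure and don't-eat-me molecules, Cd24a and the scramblase gene Ano6 were higher in neurofibroma SCs by 3.29 ± 0.56 and 1.78 ± 0.17 (adjusted p = 1.1e-04 and 6.1e-08). The inhibitory receptor gene Sirpa and Cd47, which encodes its ligand, were lower by -2.75 ± 0.22 and -1.11 ± 0.16 (adjusted p = 4.8e-09 and 1.1e-05).

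Of 11 engulfment machinery genes 2 were higher and 4 lower. Dock1, an activator of Rac1, was higher in neurofibroma SCs by 3.01 ± 0.19 (adjusted p = 1.1e-10), and Vav1 and Rac2, signalling proteins of blood cells, were lower by -4.60 ± 0.18 and -3.86 ± 0.28 (adjusted p = 1.4e-13 and 1.2e-09). Of 14 phagosome maturation genes 5 were lower and none higher in limma, led by Cybb, the catalytic subunit of the phagocyte oxidase, at -6.36 ± 0.41 (adjusted p = 1.8e-10) and Lipa, lysosomal acid lipase, at -3.45 ± 0.27 (adjusted p = 3.0e-09).

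Of 9 sterol handling genes 6 were lower in neurofibroma SCs and none was higher in limma. The nuclear receptor gene Pparg was at -2.83 ± 0.29 and the cholesterol exporter gene Abcg1 at -2.53 ± 0.20 (adjusted p = 1.9e-07 and 4.8e-09). The list's median difference was -2.26 in neurofibroma, -1.22 in mutant and -1.13 in wild-type tissue. In the change from wild-type to neurofibroma 4 of the 9 passed, all toward macrophages, beside 2.69% of all genes, with Abcg1 at -1.28 ± 0.30 (adjusted p = 0.014) and Apoe, apolipoprotein E, at -1.27 ± 0.18 (adjusted p = 5.7e-04). The list held 1 such gene against mutant tissue, beside 1.09% of all genes, Npc2, at -1.23 ± 0.24 (adjusted p = 0.0059).

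Of 9 other scavenger receptors 1 was higher and 3 were lower in neurofibroma SCs. Mrc1, the mannose receptor, was at -5.98 ± 0.19 (adjusted p = 4.5e-15). Cd163, the haemoglobin scavenger receptor, was lower in SCs by -3.20 ± 0.25 in wild-type tissue (adjusted p = 7.7e-09), and this deficit was smaller in neurofibroma by 2.38 ± 0.35 (adjusted p = 6.0e-04). Colec12, a scavenger receptor of the collectin family, was higher in neurofibroma SCs by 1.93 ± 0.24 (adjusted p = 1.7e-06), and its change against mutant tissue was 2.37 ± 0.33 (adjusted p = 4.1e-04).

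Of 10 genes for ligand carboxylation, receptor shedding and signalling, 1 was higher and 3 were lower in neurofibroma SCs. Vkorc1, which recycles the vitamin K needed to carboxylate Gas6 and protein S, was higher by 1.49 ± 0.19 (adjusted p = 2.7e-06). Adam17, a protease that sheds Mertk and Axl, was lower by -2.17 ± 0.19 (adjusted p = 2.0e-08), and Ifnar1, a chain of the type I interferon receptor that pairs with TAM receptors in signalling, by -1.72 ± 0.18 (adjusted p = 2.3e-07).

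**Figure D5:**
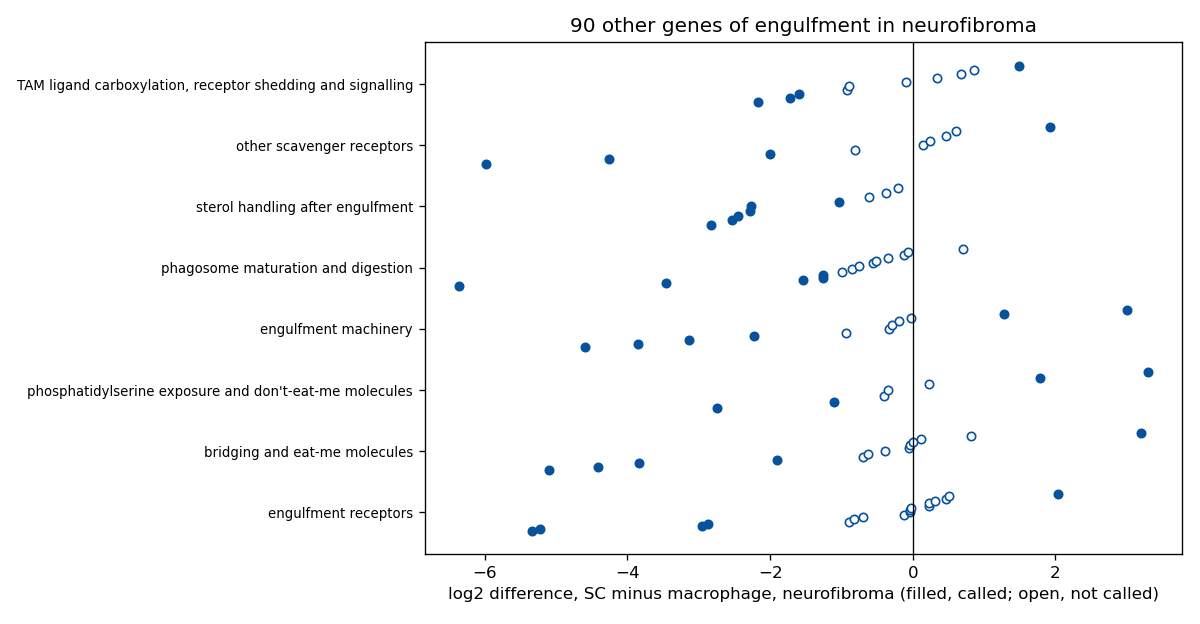
Log2 difference between neurofibroma SCs and macrophages (x axis) for 90 genes of 8 engulfment lists (rows), filled where the gene passed the test and open where it did not. Filled points lie mostly to the left, 31 against 8.

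Across age, 2 genes of the lists were higher and 7 lower in neurofibroma than mutant macrophages after ComBat, and 4 higher and 3 lower in SCs, out of 90. Over all genes 2.62% were higher and 2.34% lower in macrophages and 2.52% and 3.11% in SCs, so the 2 higher in macrophages and the counts in SCs were near those shares. With the controls in the fit 0 passed in both. Cd14 was higher in macrophages by 1.41 ± 0.10 (adjusted p = 1.0e-06, and 0.54 with the controls), and Colec12 and Cd163 were lower by -1.98 ± 0.16 and -1.77 ± 0.21 (adjusted p = 2.5e-06 and 5.1e-05, and 0.12 and 0.21 with the controls).

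The genes whose levels followed each member most closely over the 21 arrays were listed by Pearson's r, as a description over arrays that share cell type and age. Msr1 followed Tlr1, Nckap1l and Slc15a3 (r = 0.996, 0.995 and 0.994), Stab1 followed Fcrls, Tlr13 and Csf1r (r = 0.991, 0.991 and 0.988) and Timd4 followed Trim30c, Cfp and Hk3 (r = 0.973, 0.967 and 0.956). Marco followed Cd209d, Cd209b and Cd4 (r = 0.933, 0.915 and 0.905). Pros1 followed Pde1a, Cnksr2 and Nop58 (r = 0.968, 0.966 and 0.963), Mfge8 followed Aldh1a3, Cd24a and Abcc9 (r = 0.905, 0.897 and 0.896) and Gas6 followed Slc6a15, Krtdap and Cav2 (r = 0.888, 0.884 and 0.881). For Axl the nearest were Pspc1, Zdhhc13 and Foxn2 (r = 0.917, 0.905 and 0.896), for Tyro3 Sardh, Dusp15 and Wdr35 (r = 0.873, 0.857 and 0.856) and for Mertk Kdr, Htr2a and Actr1a (r = 0.754, 0.728 and 0.726).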

How the data were processed

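The authors deposited log2 expression values for 41345 transcript clusters on 23 arrays, made with RMA in Affymetrix Expression Console 1.3.1.187 per the labels. The deposited values were used as given. ComBat (parametric, array set as batch, group as covariate) was written here and applied to all arrays. The study names this method for combining its batches. The array set here was the level of the array medians, which followed age, and not the batch in the labels. Of the clusters, 23521 had 1 gene symbol, 1820 several and 16004 none, and the cluster with the highest mean was kept for each of 22180 genes. Tests used limma 3.58.1 in R 4.3.3, with 3 groups of a cell type in one fit (6 and 9 residual degrees of freedom) and 6 groups for comparisons of cell types (15). Scripts were tested on simulated data with known changes in neurofibroma macrophages. There the ComBat fit called many unchanged genes across age, while the fit with the controls did not. The simulated control arrays had the spread of the sorted-cell arrays. After ComBat, p-values across age leave out the error of the control pair.

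The members and lists were chosen with earlier results of these data known. Text names the members, at most 2 genes per list and direction, and 3 most correlated genes per member. Alternatives changed the normalization, batch terms, filter, thresholds and arrays. Genes not measured as single-gene clusters were not analysed here. Arrays have no read depth, and their number limits the precision.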

Additional observations from a re-analysis of the deposited data

Results flagged for a closer look

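Tyro3 on neurofibroma macrophage array d was 2.92, while the other 3 arrays of that group held the same value, 2.57. With 3 equal values any different value on the remaining array exceeds Dixon's critical value, so this selection tells nothing. Mfge8 on mutant macrophage array 14 was 7.41 against 5.75 to 6.17 on the other 4, farther from the rest than Dixon's critical value allows. That array had the highest summed SC marker signal of the macrophage arrays, 1704, and its part in the Mfge8 value was not tested. A total of 20 groups were examined, and chance selects about 1 in 20.

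The change from mutant tissue to neurofibroma differed between the cell types for Pros1, by 1.05 (adjusted p = 0.0056, limma), and the change from wild-type tissue to neurofibroma differed for Marco, by 2.31 (adjusted p = 0.044, limma). The Pros1 difference passed in 24 of 29 alternatives and that of Marco in 8 of 28. The adjusted p of Pros1 was under 0.05 in all 29, though settings that changed only the fold threshold could not alter it.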

How the results depend on the processing

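Of the 10 genes, the count passing in each comparison stayed within 1.5 times under most alternatives, and no gene changed direction where it passed. With array set and universal controls in the fit, 0 passed for neurofibroma against wild-type SCs, for neurofibroma against mutant or wild-type macrophages, and for the change of the cell type difference from wild-type tissue, while over all genes 46 to 69 passed across age in place of 1099 to 1434. Centring on array medians gave 1, 1 and 0 for the last 3 of these, and quantile normalization gave 1 and 2 for the macrophage comparisons and 0 for the change of the cell type difference from mutant tissue. For the change from wild-type tissue the count was 0 with ComBat of the mean only or a robust variance trend, and 2 with array weights, a filter on low values, a fold change above 1.5 or no fold change minimum. Label batch as a term gave 0 for the change from mutant tissue, 1 for neurofibroma against mutant SCs and 2 against wild-type SCs, and label batch 2 alone gave 0 for the latter. Array weights, a fold change above 1.5 and no fold change minimum each gave 1 for neurofibroma against mutant SCs. Against wild-type SCs the fit of all 6 groups gave 2 and both looser fold changes 3. With no fold change minimum 7 passed in macrophages against mutant and 8 between mutant SCs and macrophages. Without wild-type macrophage replicates 5 and 6, 0 passed against wild-type macrophages. Without the 5 arrays with seminal vesicle transcripts, a setting chosen after seeing the data, 0 passed in the 2 neurofibroma against wild-type comparisons and in the change of the cell type difference, and 559 genes in place of 1434 passed in SCs.

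Leaving out single arrays gave 5 to 6, 4 to 5 and 5 to 6 genes for SCs against macrophages in wild-type, mutant and neurofibroma tissue, 0 to 0 for mutant against wild-type in both cell types (over all genes 0 to 1 in SCs and 0 to 78 in macrophages), 0 to 0 and 0 to 2 for neurofibroma SCs against mutant and wild-type, 2 to 3 and 3 to 4 for macrophages, and 0 to 1 for each change of the cell type difference. Over all genes quantile normalization gave 306 and label batch as a term 281 in place of 471 for the change from mutant tissue, and quantile normalization 542 and the smaller set of arrays 490 in place of 848 for that from wild-type tissue. The sample numbers of neurofibroma SC arrays a and b recur as those of macrophage arrays c and d. The deviations of same-numbered arrays correlated at 0.04 and 0.09, and with a replicate block 5 genes passed between neurofibroma SCs and macrophages, as without it, and 2746 in place of 2751 over all genes.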

Other observations

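The universal control pair shows how unevenly the genes moved between array sets. Its deposited log2 values differed, 7-month set minus 1-month set, by -0.08 for Mfge8, -0.25 for Timd4, -0.37 for Stab1, -0.46 for Axl, -0.54 for Mertk, -0.72 for Tyro3, -0.81 for Gas6, -0.85 for Pros1, -1.05 for Marco and -1.30 for Msr1. The median over all clusters was -0.60.

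Tyro3 was listed at the same deposited value, 2.13, on the control array of the 7-month set as on 3 of the 4 neurofibroma macrophage arrays before correction.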
